A study of Homo sapiens with 9 samples.

Results

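The genes described here are the D cyclins and their partners in the G1 phase of the cell cycle: CCND1, CCND2, CCND3, CDK4, CDK6, CDKN1A, CDKN1B, CDKN1C, CDKN2C and RB1. They are 10 genes, listed by name, of the 58735 genes in the count tables. RNA was sequenced from an established clear cell renal carcinoma cell line that lacks functional VHL and HIF1α, so that HIF2α (gene EPAS1) is its active HIF alpha subunit. There were 3 groups of 3 libraries each: untreated parental cells (WT), parental cells given 10 μM PT2385, and an untreated HIF2α knockout line (KO). All cells were kept for 48 h at 21% oxygen in DMEM with 5 mM glucose and 10% FBS, so every group shares the VHL and HIF1α defects. PT2385 binds a pocket of HIF2α and blocks its pairing with HIF1β. The KO cells are named a HIF2α knockout by their labels, and HIF2α protein was not measured in these data. How the KO line was made, and whether it is a single clone, is not given in the sources used here, so loss of HIF2α and other differences of that line cannot be told apart. No source says that the 3 libraries of a group came from separate cultures, so the p-values measure the spread between these libraries only.

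In G1, D cyclins bind the kinases CDK4 and CDK6, and the complexes phosphorylate the RB1 product and its relatives. Phosphorylated RB1 releases E2F transcription factors, which switch on the genes of DNA replication. INK4 inhibitors such as p18 (CDKN2C) bind CDK4 and CDK6 directly, whereas the CIP/KIP inhibitors p21 (CDKN1A), p27 (CDKN1B) and p57 (CDKN1C) bind cyclin-CDK complexes. In clear cell renal carcinoma CCND1 is a well-known HIF2α-dependent gene. Repression of the E2F genes by the RB1 product depends on its phosphorylation, which RNA does not show.

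Libraries held 11881000 to 14730081 counts, and levels are given as normalized CPM, the counts scaled to library size after TMM scaling. EPAS1 was at 256 ± 20.0 CPM (SD, n = 3) in WT, 239 ± 16.9 in PT2385 and 22.1 ± 2.52 in KO cells. In KO its RNA was thus far lower, at 8.63% of WT, but not absent. With PT2385 EPAS1 passed no test (log2 fold change -0.11, adjusted p = 0.459). All 8 markers of renal carcinoma cells examined were expressed in every group, with a summed level of 5892 to 6497 CPM over the 9 libraries, most of it VIM. Of the 8, 3 (CDH6, KRT8, KRT18) were called higher and 2 (PAX2, MME) lower in each comparison with WT. That is 62.5% of the list, where 7.70% of all tested genes were called with PT2385 and 30.1% in KO. Log2 fold changes with PT2385 and in KO were 1.38 and 1.03 for CDH6 and -0.44 and -1.30 for PAX2. MME gave -1.16 and -1.48, KRT8 0.26 and 0.54, and KRT18 0.47 and 0.85. The summed level does not show these changes. The marker levels themselves thus moved with the groups, and their part in the results was not tested. Of 6 blood and endothelial markers, 5 had at most 3 counts per group, and CD14 was the sixth, so that their summed level reached at most 1.31 CPM. No library was left out.

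CCND1 was the most abundant D cyclin RNA in WT and was far lower both with PT2385 and in the knockout, while CCND3 and the inhibitor CDKN1A were higher in both. CDK6 and CDKN2C were lower in KO cells than in either other group, and CDK4, CDKN1B and RB1 passed no test. The calls of CCND3 and CDKN2C were lost when some single libraries were left out, and that of CCND3 with PT2385 also with DESeq2. Calls are edgeR quasi-likelihood tests with a Benjamini-Hochberg adjusted p under 0.05 across all tested genes. Of the 10 genes, 8 passed the filter on low counts. With PT2385 3 of these 8 were called (2 higher, 1 lower), where 7.70% of all 15089 tested genes were called (3.08% higher, 4.62% lower). In KO against WT 5 of 8 were called (2 higher, 3 lower), where 30.1% of 15192 genes were called (14.7% higher, 15.4% lower). In KO against PT2385 3 of 8 were called (1 higher, 2 lower), where 18.8% of 15402 genes were called (8.47% higher, 10.3% lower). Counted by whether the 3 libraries of one group lay wholly above or below those of the other, 4 of the 8 genes were separate with PT2385 (2 higher, 2 lower), where 26.0% of all genes were (13.4% higher, 12.7% lower). In KO against WT 5 were separate (2 higher, 3 lower), where 43.8% of all genes were (20.7% higher, 23.1% lower). In KO against PT2385 3 were separate (1 higher, 2 lower), where 35.4% of all genes were (16.6% higher, 18.7% lower). The median log2 fold change over all tested genes lay within 0.0038 of 0 in each comparison. Both comparisons with WT use the same 3 WT libraries, so their values are set side by side and are not independent. In bulk RNA, fewer cells that express a gene and less RNA per cell cannot be told apart.

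**Figure D1:**
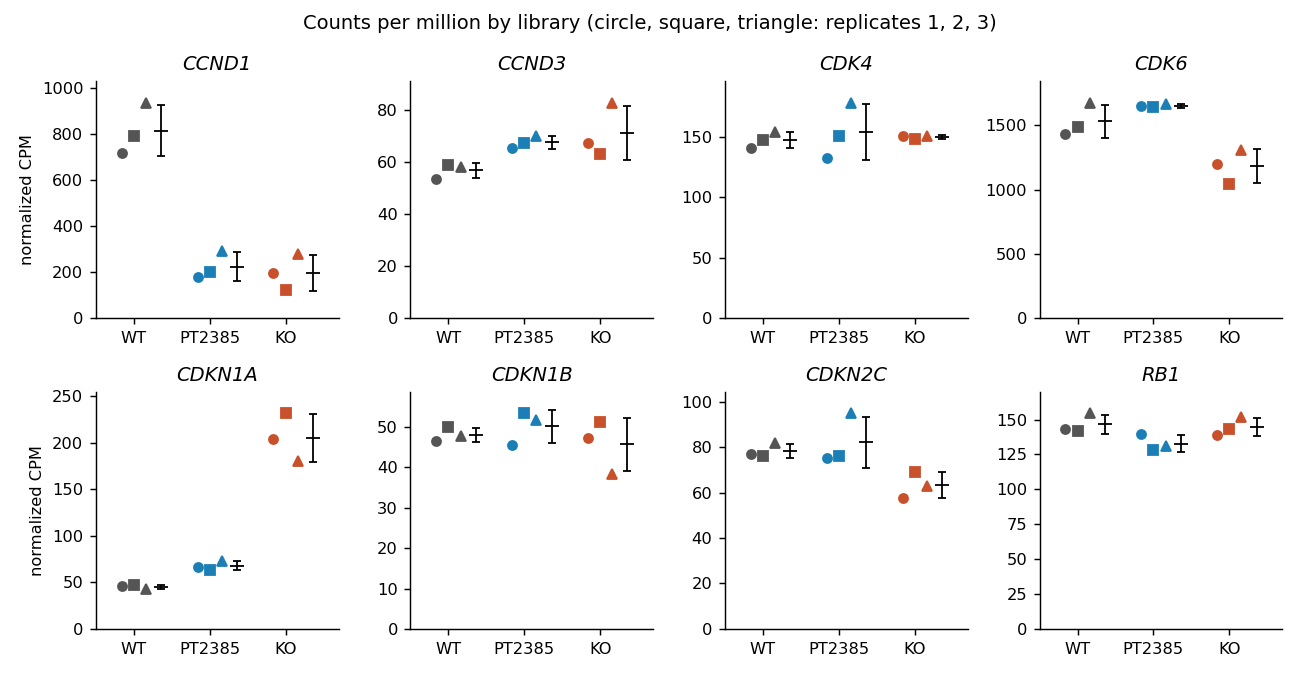
Normalized CPM (y axis, linear from 0) of the 8 tested genes in each library, by group; circles, squares and triangles are replicates 1, 2 and 3, and the black bar is the mean ± SD (n = 3). CCND1 libraries of PT2385 and KO all lie at or below 293.9 CPM, under the lowest WT library at 718.8, and CDKN1A steps up from WT to PT2385 to KO.

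Sequences upstream of transcript starts are shown here for the 3 genes called between the knockout and the inhibitor, CDKN1A, CDK6 and CDKN2C. They are the bases directly before RefSeq transcript starts of GRCh38.p14, read 5′ to 3′ on the gene's strand, 250 bases each except the CDKN1A window, which stops at 246 where an annotated exon begins. Capitals mark the HIF core letters ACGTG and GCGTG, on either strand, and the E-box letters CACGTG, which read as ACGTG on both strands and so count as 2 HIF core matches.
CDKN2C, chr1:50960495-50960744, plus strand: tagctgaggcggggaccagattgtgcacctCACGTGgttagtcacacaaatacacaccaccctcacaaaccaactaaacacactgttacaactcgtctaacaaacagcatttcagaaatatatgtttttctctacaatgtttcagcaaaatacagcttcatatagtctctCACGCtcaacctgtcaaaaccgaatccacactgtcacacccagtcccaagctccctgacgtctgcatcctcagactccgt
CDKN2C, chr1:50969995-50970244, plus strand: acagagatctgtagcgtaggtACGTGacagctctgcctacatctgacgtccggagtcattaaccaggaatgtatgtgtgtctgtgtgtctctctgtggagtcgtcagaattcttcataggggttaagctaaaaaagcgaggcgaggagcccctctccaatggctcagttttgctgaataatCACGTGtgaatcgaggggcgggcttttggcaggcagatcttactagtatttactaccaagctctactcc
CDKN1A, chr6:36678464-36678709, plus strand: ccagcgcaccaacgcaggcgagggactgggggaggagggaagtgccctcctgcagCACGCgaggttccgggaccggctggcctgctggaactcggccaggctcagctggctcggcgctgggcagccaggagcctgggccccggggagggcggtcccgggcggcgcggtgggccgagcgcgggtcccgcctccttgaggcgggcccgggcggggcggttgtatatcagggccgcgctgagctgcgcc
CDK6, chr7:92836574-92836823, minus strand: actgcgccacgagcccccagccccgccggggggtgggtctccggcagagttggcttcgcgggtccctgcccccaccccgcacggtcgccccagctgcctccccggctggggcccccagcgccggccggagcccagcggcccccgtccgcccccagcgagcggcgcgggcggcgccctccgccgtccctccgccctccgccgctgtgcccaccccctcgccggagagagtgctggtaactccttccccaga
CDK6, chr7:92833960-92834209, minus strand: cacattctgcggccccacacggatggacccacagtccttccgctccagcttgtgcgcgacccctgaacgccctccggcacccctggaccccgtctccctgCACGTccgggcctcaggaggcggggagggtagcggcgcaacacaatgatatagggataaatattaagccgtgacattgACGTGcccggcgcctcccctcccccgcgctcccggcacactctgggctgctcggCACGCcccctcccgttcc

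Both printed CDKN2C windows held 3 HIF core matches, including 1 CACGTG each, the CDKN1A window held 1, and the CDK6 windows held 0 and 3. Another CDKN2C window, chr1:50968456-50968705, lies wholly in an annotated exon and is not printed; it held 2 GCGTG and 0 CACGTG. Windows of matched genes that were not called between KO and PT2385 are not printed either. The window of CDK4, which passed no test, has 137 bases in an annotated exon and held 6 ACGTG and 3 CACGTG. The CDKN1B window held 1 GCGTG, the RB1 window 0 HIF core matches, and the CCND3 windows 1, 0 and 0. Of the 35116 RefSeq windows of 250 upstream bases, 43.2% held ACGTG or GCGTG and 6.34% held CACGTG, so the HIF core letters alone are common. The CDKN1A window shares 96 bases with an exon of the lncRNA DINOL on the other strand. It lies inside the annotated gene, before an internal transcript start, as do the last printed windows of CDKN2C and CDK6. The RefSeq table matched 7 of the 10 genes, and CCND1, CCND2 and CDKN1C were not among them. A match of letters is a description of the window, and binding was not measured.

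CCND1 (ENSG00000110092, chr11:69641156-69654474 of GRCh38, plus strand) encodes cyclin D1, the D cyclin most often raised in carcinomas. It stood at 718.8, 789.5 and 936.6 CPM in the WT libraries, at 177.2, 199.6 and 293.9 with PT2385, and at 194.9, 121.7 and 278.2 in KO. Every treated and every KO library was below every WT library, and the PT2385 and KO ranges overlapped. The mean with PT2385 was 27.4% of WT (log2 fold change -1.87, SE 0.156, 95% interval -2.21 to -1.53, adjusted p = 8.99e-06). In KO it was 24.3% of WT (log2 fold change -2.03, SE 0.225, interval -2.52 to -1.53, adjusted p = 5.67e-05). KO and PT2385 did not differ past the test (log2 fold change -0.18, interval -0.74 to 0.39, adjusted p = 0.696), an interval that still allows KO to be lower by 0.74 on the log2 scale. Replicate 3 was the highest library of each group, and the highest library exceeded the lowest by 1.30-fold in WT, 1.66-fold with PT2385 and 2.29-fold in KO, so the KO level was the least precisely measured. The exons of CCND1 share 497 bases with LTO1 on the opposite strand, and whether the counting used strand is not stated. LTO1 stood at 23.9 ± 1.28 CPM in WT.

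CCND3 (ENSG00000112576, chr6:41934934-42050357, minus strand), which encodes cyclin D3, moved the other way by a small amount. It was at 53.6, 58.9 and 58.2 CPM in WT, at 65.5, 67.4 and 70.3 with PT2385, and at 67.6, 63.4 and 83.0 in KO. All 6 PT2385 and KO libraries were above all WT libraries, with KO replicate 3 the highest. The log2 fold change was 0.25 with PT2385 (SE 0.0689, interval 0.10 to 0.40, adjusted p = 0.0494) and 0.34 in KO (SE 0.0969, interval 0.13 to 0.55, adjusted p = 0.0214). Both calls were weak. With PT2385 the call was lost with DESeq2 (adjusted p = 0.0858), with no filter on low counts (0.0539), with all 9 libraries in 1 model (0.152) and when WT replicate 1, 2 or 3 or PT2385 replicate 2 or 3 was left out (adjusted p 0.0851 to 0.201), and in KO when any WT replicate was left out (0.0560 to 0.0848). CCND2, the third D cyclin (ENSG00000118971, chr12:4269771-4305353, plus strand), had 2 reads over the 9 libraries, 1 in KO replicate 1 and 1 in PT2385 replicate 1, so it was not detectable above the 3 counts that a count of 0 allows in any group.

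Per kb of exon, CCND1 made up 94.2, 94.2 and 95.1% of the summed D cyclin RNA in the WT libraries. It made up 76.6, 78.2 and 83.5% with PT2385 and 77.7, 69.9 and 80.2% in KO. The difference from WT was -15.1 percentage points with PT2385 and -18.6 points in KO, with no overlap, and CCND1 remained the main D cyclin RNA in all 9 libraries. An exact two-sided permutation test gave p = 0.1 for each, the smallest value that 3 against 3 libraries can give. KO minus PT2385 was -3.48 points (exact permutation p = 0.5). With the length of the longest transcript in place of all exons the differences from WT were -24.5 and -29.1 points, because CCND3 then counts for more.

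CDK6 (ENSG00000105810, chr7:92604921-92836573, minus strand) and CDK4 (ENSG00000135446, chr12:57747727-57756013, minus strand) encode the catalytic partners of the D cyclins. CDK6 was at 1430.6, 1488.3 and 1678.0 CPM in WT, at 1650.8, 1641.1 and 1669.7 with PT2385, and at 1200.8, 1044.1 and 1308.6 in KO. All KO libraries were below all others, while the PT2385 libraries lay inside the WT range. In KO the log2 fold change was -0.36 against WT (SE 0.0842, interval -0.54 to -0.17, adjusted p = 0.00794) and -0.48 against PT2385 (SE 0.0786, interval -0.66 to -0.31, adjusted p = 0.00154), that is 0.781 and 0.715 of those levels. With PT2385 against WT it was 0.11 (interval -0.02 to 0.24, adjusted p = 0.345). The knockout and the inhibitor therefore differed for CDK6 in a direct test.

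CDK4 was at 140.4, 147.2 and 154.2 CPM in WT, at 132.0, 150.8 and 178.2 with PT2385, and at 150.9, 147.8 and 150.4 in KO. The groups overlapped, and the log2 fold changes were 0.06 with PT2385 (interval -0.15 to 0.26, adjusted p = 0.776) and 0.04 in KO (interval -0.09 to 0.17, adjusted p = 0.677). These intervals exclude a change of CDK4 as large as that of CCND1. The gene shares 1369 exonic bases with TSPAN31 on the opposite strand, which was at 11.6 ± 2.87 CPM in WT. Per kb, CDK6 made up 72.4 ± 0.800% of CDK4 plus CDK6 RNA in WT, 73.2 ± 2.83% with PT2385 and 66.5 ± 2.33% in KO. KO minus WT was -5.87 percentage points and KO minus PT2385 -6.66 points (exact permutation p = 0.1 each, the smallest possible).

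CDKN1A (ENSG00000124762, chr6:36676460-36687337, plus strand) encodes p21, an inhibitor best known as a target of p53 and also part of cyclin D-CDK4 complexes. It was at 45.8, 47.2 and 42.6 CPM in WT, at 66.9, 63.8 and 73.1 with PT2385, and at 204.4, 231.7 and 180.0 in KO. The 3 groups did not overlap and stood in the order WT, PT2385, KO. With PT2385 it rose from a mean of 45.2 to 67.9 CPM (log2 fold change 0.58, SE 0.0769, interval 0.42 to 0.75, adjusted p = 4.41e-04). In KO it was 4.59-fold higher than in WT (log2 fold change 2.20, SE 0.0951, interval 1.99 to 2.41, adjusted p = 3.72e-08). KO exceeded PT2385 by 3.02-fold (log2 fold change 1.59, SE 0.0989, interval 1.38 to 1.81, adjusted p = 2.50e-06). Of the 8 genes CDKN1A had the largest difference between KO and PT2385.

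CDKN2C (ENSG00000123080, chr1:50960745-50974634, plus strand) encodes p18, an INK4 inhibitor. It was at 76.9, 76.0 and 82.1 CPM in WT, at 75.2, 76.2 and 94.95 with PT2385, and at 57.8, 69.3 and 63.1 in KO. Each KO library was below every other library. The log2 fold change in KO was -0.29 against WT (SE 0.0772, interval -0.46 to -0.12, adjusted p = 0.0153) and -0.37 against PT2385 (SE 0.105, interval -0.61 to -0.14, adjusted p = 0.0292), while PT2385 against WT gave 0.07 (interval -0.13 to 0.26, adjusted p = 0.730). The call against WT was lost without WT replicate 3 (adjusted p = 0.0640) or KO replicate 1 (0.0701), and the call against PT2385 without KO replicate 1 or PT2385 replicate 2 or 3. The INK4 genes CDKN2A and CDKN2B, which lie next to each other on another chromosome and are often deleted in tumours, had 0 counts in all 9 libraries.

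CDKN1B (ENSG00000111276, chr12:12685498-12722369, plus strand), which encodes p27, was at 46.4, 49.9 and 47.6 CPM in WT, at 45.5, 53.4 and 51.6 with PT2385, and at 47.2, 51.3 and 38.4 in KO. The groups overlapped, with KO replicate 3 the lowest library. The log2 fold changes were 0.06 with PT2385 (interval -0.11 to 0.23, adjusted p = 0.716), -0.06 in KO (interval -0.28 to 0.16, adjusted p = 0.712) and -0.14 for KO against PT2385 (interval -0.39 to 0.11, adjusted p = 0.444). Protein turnover largely sets p27, which RNA does not measure. CDKN1C (ENSG00000129757, chr11:2883213-2885775, minus strand), which encodes p57, had 9 counts over the 9 libraries, 7 of them in KO, and was removed by the filter on low counts. Without that filter the log2 fold change was 2.26 in KO against WT (SE 1.43, adjusted p = 0.346) and 2.38 in KO against PT2385 (adjusted p = 0.370), so CDKN1C passed neither test.

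RB1 (ENSG00000139687, chr13:48303744-48599436, plus strand), the pocket protein that D cyclin kinases phosphorylate, was at 143.3, 141.6 and 154.5 CPM in WT, at 139.4, 128.1 and 131.0 with PT2385, and at 139.0, 143.0 and 152.1 in KO. The PT2385 libraries lay just below all WT libraries and the KO libraries overlapped both. The log2 fold change with PT2385 was -0.14 (interval -0.28 to -0.0059, adjusted p = 0.217) and in KO -0.0034 (interval -0.14 to 0.13, adjusted p = 0.977).

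**Figure D2:**
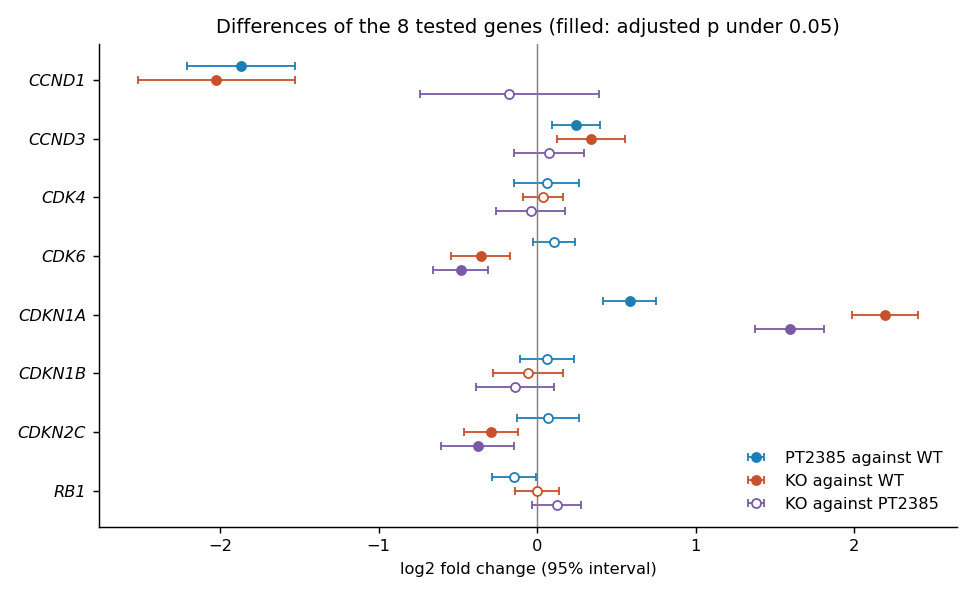
Log2 fold change (x axis) with its 95% interval for the 8 tested genes in the 3 comparisons; filled points passed an adjusted p under 0.05. CCND1 stands near -2 against WT in both conditions and near 0 between them, while CDKN1A stands at 0.58, 2.20 and 1.59.

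Per kb of exon, the order of the levels in WT was CCND1 (171 CPM per kb), CDK6 (125), CDK4 (47.6), CDKN2C (26.0), RB1 (22.8), CDKN1A (15.1), CCND3 (9.88) and CDKN1B (5.18), and no neighbours in this order overlapped. With PT2385, CDK6 came first at 135 CPM per kb, and CCND1 (47.0) overlapped CDK4 (49.7). In KO, CDK6 was first at 96.8 and CDKN1A moved to second place at 68.5, above CDK4 (48.4) and CCND1 (41.6), which overlapped. CDKN1B was the lowest of the 8 tested genes in every group. The order rests on the exon lengths: with the longest transcript CCND3 reads 23.8 CPM per kb in WT.

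**Figure D3:**
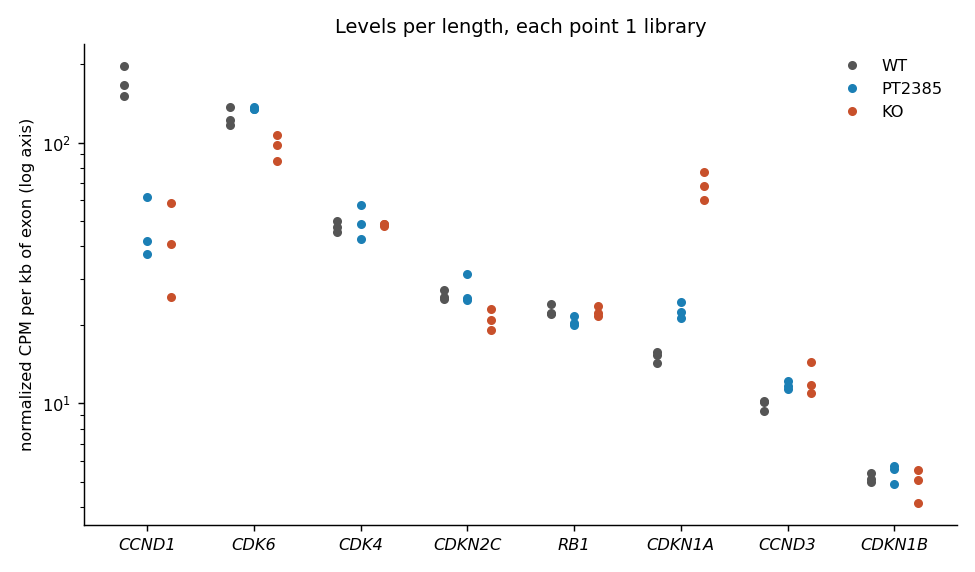
Normalized CPM per kb of exon (log axis) of the 8 tested genes, each point 1 library, coloured by group. CCND1 leads in WT at a mean of 171 and drops to 47.0 and 41.6 with PT2385 and in KO, while CDKN1A climbs from 15.1 to 22.7 and 68.5.

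Among 10107 genes, those with a profile over the 9 libraries most like that of CCND1 were STC1, MYEOV, PTHLH, VEGFA and POU5F1, with a root mean square difference of mean-centred log2 CPM of 0.202, 0.253, 0.269, 0.309 and 0.329. STC1 encodes the hormone stanniocalcin, PTHLH a parathyroid hormone-like peptide, VEGFA the main angiogenic growth factor and POU5F1 a pluripotency factor whose retrocopies can share reads with it. Their likeness was measured over samples of the same 3 groups, so any gene that fell by a similar amount in both conditions scores well. MYEOV (chr11:69294151-69341682, plus strand) is the nearest protein-coding gene on the lower-coordinate side of CCND1, 299473 bases away. It was at 80.1, 79.0 and 85.4 CPM in WT, at 20.8, 19.0 and 30.4 with PT2385, and at 29.8, 17.8 and 36.3 in KO. Its log2 fold change was -1.80 with PT2385 (SE 0.135, adjusted p = 3.81e-06) and -1.53 in KO (SE 0.183, adjusted p = 9.40e-05), so MYEOV fell with CCND1 in both. FGF19, the nearest on the other side, had 0 counts in every library, and LTO1, which overlaps the end of CCND1, passed no test (log2 fold change -0.34 with PT2385, adjusted p = 0.0665, and -0.15 in KO, adjusted p = 0.281).

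**Figure D4:**
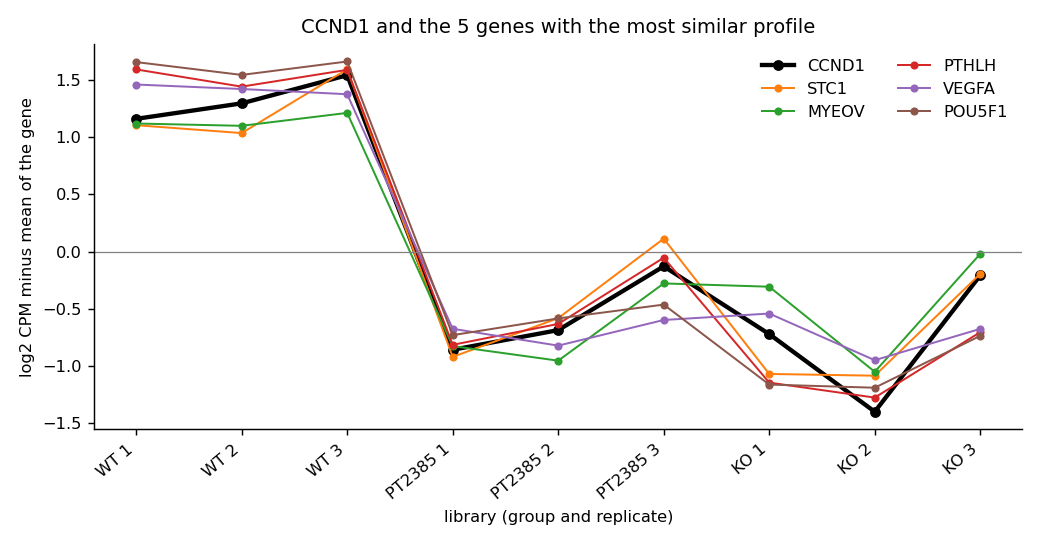
Log2 CPM minus the gene's mean (y axis) in each of the 9 libraries (x axis) for CCND1 (thick line) and the 5 genes most like it. All 6 profiles are high in the 3 WT libraries and low in the 6 others.

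Around the D cyclin complexes, 22 of 24 other G1/S regulators (E cyclins, CDK2, E2F factors, pocket proteins and their kin) were tested. With PT2385 1 was lower and 0 were higher (median log2 fold change -0.018, where 4.62% of all genes were called lower and 3.08% higher). In KO 4 were lower and 0 higher (median -0.117, where 15.4% and 14.7% of all genes were called lower and higher). The 4 that fell in KO were RBL2, E2F4, E2F7 and RBL1. RBL2, the p130 pocket protein of quiescent cells, was at 95.3 CPM in WT, 80.3 with PT2385 and 62.3 in KO (log2 fold change in KO -0.60, adjusted p = 2.44e-04), and E2F4, its E2F partner, at 75.1, 80.6 and 56.4 (-0.40, adjusted p = 0.00265). E2F7, a repressor E2F, was at 150.3, 112 and 114 CPM, with log2 fold changes of -0.43 with PT2385 (adjusted p = 0.0012) and -0.38 in KO (adjusted p = 0.0244). The KO call of E2F7 was lost without WT replicate 1 or 2 or KO replicate 1 (adjusted p up to 0.0873), and that of RBL1 without WT replicate 2 or 3 or KO replicate 1 or 2 (up to 0.0960). CCNE1, CCNE2 and CDK2, which act after the D cyclins and are named here after their values were seen, passed no test in either comparison. The KO count was 2 without WT replicate 2 or KO replicate 1 and 8 without KO replicate 3. With the replicate number as a block, 4 were lower and 1 higher with PT2385.

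Of 12 genes that make or break down D cyclin and p27 protein, 4 were higher and 1 lower in KO (median log2 fold change 0.137), where 14.7% of all genes were called higher and 15.4% lower. CDC37, the cochaperone that loads CDK4 and CDK6 onto HSP90, rose from 122 to 160 CPM (log2 fold change 0.40, adjusted p = 0.00117). DDB1 and CUL4B, parts of ubiquitin ligases, rose by 0.23 and 0.31 on the log2 scale, and GSK3B, a kinase that marks cyclin D1 for degradation, by 0.19. FBXO31, an F-box protein that targets cyclin D1, fell from 39.6 to 28.9 CPM (log2 fold change -0.44, adjusted p = 0.00262). With PT2385 edgeR and DESeq2 each called 0 of the 12, where edgeR called 7.70% of all 15089 tested genes. By edgeR 2 of the 12 had an unadjusted p under 0.05, as had 3193 of all 15089 genes. The replicate block called 2 higher, where it called 2305 genes either way.

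Of 21 E2F-driven genes of S phase, 13 fell and 0 rose in KO (61.9% of the list, where 15.4% of all genes were called lower, with a median log2 fold change of -0.274 against 0.0038 for all genes). CDT1, which licenses replication origins, was at 86.1 CPM in WT, 82.3 with PT2385 and 56.3 in KO (log2 fold change in KO -0.60, adjusted p = 0.00176), and MCM5, a subunit of the replicative helicase, at 177, 152 and 121 (-0.53, adjusted p = 0.00118). MCM6 and MCM7, of the same helicase, gave -0.44 (adjusted p = 0.00131) and -0.38 (adjusted p = 0.00192). With PT2385 the median of the list was -0.116, and 1 gene was called lower and 0 higher. Of all genes, 4.62% were called lower and 3.08% higher with PT2385. Of all 21, 6 had an unadjusted p under 0.05 with PT2385, as had 3193 of all 15089 tested genes. The replicate block called 5 of the 21 lower, where it called 2305 genes either way. Leaving out 1 library at a time, the KO count ran from 9 (without WT replicate 3 or KO replicate 1) to 20 (without KO replicate 3). Against PT2385, KO had 5 lower (10.3% of all genes were called lower, median -0.234), but this count ran from 0 without KO replicate 1 or PT2385 replicate 3, through 1 without KO replicate 2 or PT2385 replicate 2, to 12 without KO replicate 3. The count between KO and PT2385 therefore depended on single libraries.

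Of 10 mitotic genes, 4 fell and 0 rose in KO (median log2 fold change -0.186), where 15.4% of all genes were called lower and 14.7% higher. PLK1, a mitotic kinase, was at 229 CPM in WT, 251 with PT2385 and 167 in KO (log2 fold change in KO -0.43, adjusted p = 2.83e-04, and -0.59 against PT2385), and CCNB2 gave -0.52 in KO (adjusted p = 4.78e-04). MKI67, the Ki-67 proliferation antigen, was the only one that fell with PT2385 (log2 fold change -0.27, adjusted p = 0.0115, where 4.62% of all genes were called lower and 3.08% higher) and it also fell in KO (-0.34, adjusted p = 0.00148). CDK1 fell in KO by 0.24 on the log2 scale (adjusted p = 0.0116, and 0.0508 without KO replicate 1). The PT2385 count was 1 lower and 1 higher with the replicate block, which called 2305 genes either way. It was 0 lower without WT replicate 2 or PT2385 replicate 2 and 2 lower without PT2385 replicate 1.

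Of 14 other p53 target genes, which share with CDKN1A its best-known activator, 6 rose and 0 fell in KO (42.9% of the list, where 14.7% of all genes were called higher, median log2 fold change 0.312). ZMAT3, an RNA-binding protein, was at 43.3 CPM in WT, 47.1 with PT2385 and 110 in KO (log2 fold change in KO 1.36, adjusted p = 6.00e-08). RRM2B, a ribonucleotide reductase subunit, was at 58.6, 55.6 and 128 (1.15, adjusted p = 4.97e-07), and MDM2, the ubiquitin ligase of p53, at 144, 164 and 255 (0.84, adjusted p = 4.79e-06). TP53INP1 rose by 1.57 on the log2 scale (adjusted p = 6.39e-04), and PHLDA3 and SESN1, the other members called higher, by 0.43 and 0.49. The remaining 8 were not called, and the lowest log2 fold change in the list was -0.51. With PT2385 edgeR and DESeq2 each called 0 of the 14 (median 0.0017), where edgeR called 7.70% of all 15089 tested genes. By edgeR 2 of the 14 had an unadjusted p under 0.05, as had 3193 of all 15089 genes. The replicate block called 1 higher and 1 lower, where it called 2305 genes either way. In the direct comparison KO exceeded PT2385 for 5 of the 14 and was lower for 0 (median 0.270, where 8.47% of all genes were called higher), among them ZMAT3 by 1.22 on the log2 scale.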

How the data were processed

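The authors trimmed reads with cutadapt, aligned them to hg38 with STAR and counted them per gene with featureCounts, per the study methods and the labels (versions are not given in the sources used here), and deposited raw counts for 58735 Ensembl genes in 9 libraries. Whether the kit and the counting used strand is not given. Strand-blind counting would put reads of opposite overlapping genes together.

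Gene symbols, positions and exon lengths came from GENCODE v44 on GRCh38, which named 58207 of the 58735 identifiers. Each pair of groups was fitted with edgeR 4.0.16 (TMM scaling, filterByExpr with a minimum count of 10, quasi-likelihood F test, Benjamini-Hochberg adjustment over all tested genes) in R 4.3.3. SEs are the log2 fold change over the root of F. Shares were compared by exact two-sided permutation tests. Alternatives were DESeq2 1.42.0, other scalings and filters, a replicate block, 1 model over all 9 libraries, and leaving out each library in turn. List counts under these alternatives were added after the data were seen. The fit was tested on simulated counts with 200 changed genes.

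Depth ran from 11881000 to 14730081 counts, at which 3 counts, the limit that a count of 0 allows, are 0.206 to 0.252 CPM; these limits cover counting error only. Replicates differed beyond counting noise, which does not show that they were separate cultures. Each was counted as 1 sample. Same-numbered WT and PT2385 libraries deviated together in part (correlations 0.452, 0.137 and 0.430 over 10140 genes). Whether the numbers mark paired samples is not settled by this. Blocked values of PT2385 against WT stand beside results that they change. The members and lists were chosen with earlier results of these data known. Named genes were all members, the 5 genes nearest to CCND1 in profile, the nearest protein-coding gene on each side of a member, and at most the 4 called genes with the smallest p in each list and comparison; GSK3B, PHLDA3, SESN1 and the uncalled genes were added with their values in view. Upstream sequences are RefSeq's (GRCh38.p14).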

Additional observations from a re-analysis of the deposited data

How the results depend on the processing

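CCND1 and CDKN1A against WT, and CDK6 and CDKN1A in the KO comparisons, kept their direction and their call under all 14 alternatives. Differences near 0 that passed no test changed sign. For RB1 in KO against WT, upper-quartile scaling gave 0.0018 in place of -0.0034. Leaving out 1 library at a time gave log2 fold changes from -0.0598 to 0.15 for CDK4 and from -0.0507 to 0.12 for CDKN2C with PT2385, from -0.0389 to 0.0318 for RB1 and from -0.15 to 0.0552 for CDKN1B in KO, and from -0.50 to 0.0816 for CCND1, from -0.0498 to 0.15 for CCND3 and from -0.14 to 0.0903 for CDK4 in KO against PT2385. It gave -0.590 to 2.24 percentage points for the CDK6 share with PT2385. The CCND1 share of D cyclins differed from WT by -24.5 (PT2385) and -29.1 (KO) points with the longest transcript, whose length for CCND3 is shorter. The number of genes called ran from 574 to 1451 (PT2385) and from 1836 to 3190 (KO against PT2385) when a library was left out. The cause of these shifts was not tested.

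With the replicate block, 2305 genes were called with PT2385, 5501 in KO against WT and 3783 in KO against PT2385, and no member's call changed. The deviations of same-numbered libraries correlated at 0.315, 0.0552 and 0.479 for KO and WT, and at 0.343, 0.0909 and 0.414 for KO and PT2385. Replicate 2 was the lowest each time, as for WT and PT2385, so these values do not settle whether the numbers pair the libraries. CCND2 and CDKN1C, with few counts, were tested only without the filter on low counts and were not called in any of the 3 comparisons (adjusted p 0.346 to 0.989).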

Other observations

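Of the 20 genes that flank the members on the chromosome, 15 were tested. In KO against WT 1 was higher and 2 were lower, 3 of 15, where 30.1% of all genes were called. CREBL2, which lies 40389 bases from CDKN1B, was at 17.9, 15.1 and 15.2 CPM in WT and at 20.6, 22.4 and 20.7 in KO (log2 fold change 0.42, adjusted p = 0.0131), with no overlap, a call lost without WT replicate 2 or 3 (adjusted p up to 0.0695). AGAP2, which lies 5569 bases from CDK4, was at 2.11 ± 0.217 CPM in WT and at 0.797 ± 0.333 in KO (log2 fold change -1.39, adjusted p = 0.00883), a low level that rested on 6 to 14 counts per KO library. MYEOV was the other one that fell. With PT2385 MYEOV was the only flanking gene called, 1 of 15, where 7.70% of all genes were called. CDK4 and CDKN1B themselves passed no test in either comparison.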
